A study of Mus musculus with 3 samples.

Results

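Complement is a cascade of plasma proteins and cell surface receptors that marks microbes and dying cells for removal. Here 9 of its genes were looked up on arrays of mouse bone marrow cultures that were being turned into osteoclasts, the bone-resorbing cells. These were C1qa, C1qb, C1qc, C3, C4b, Cfb and Cfp for components, and C3ar1 and C5ar1 for receptors. They were chosen by name, as a list, with earlier results of these data known. Every probe set that the platform annotation assigned to 1 of these symbols and no other was taken. Of the 9 genes, 7 had such a probe set (10 probe sets in all) among 12393 genes so annotated on the array, and 6 gave a signal above the floor described below on all 3 arrays.

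The 3 arrays came from 3 cultures of bone marrow cells from C57/BL6 mice, 1 array per time. All cultures had human M-CSF (hM-CSF, 50 ng/ml), which drives macrophage growth, for 3 days. They were then harvested at 0 h, or after 24 h or 72 h of human RANKL (hRANKL, 150 ng/ml), the cytokine that induces osteoclasts. The labels call these stages precursor, differentiating precursor and osteoclast, and do not state whether M-CSF was kept during RANKL, or how many mice gave marrow. A culture of equal age without RANKL is not among the samples, so RANKL and time in culture cannot be told apart, and in bulk RNA fewer cells of a type and less RNA per cell cannot be told apart.

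C1q is the recognition part of the classical pathway. It is assembled from A, B and C chains, binds antibody and the surface of dying cells, and is made largely by macrophages and dendritic cells. Properdin, the product of Cfp, stabilises the enzyme of the alternative pathway and is also made by myeloid cells, whereas C3, C4 and factor B (Cfb) come mainly from the liver and are induced locally by inflammation. C3ar1 and C5ar1 are G protein-coupled receptors for the fragments C3a and C5a, which attract and activate myeloid cells.

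Signals are given after each array was centred on the median of its gene probe sets, because the deposited medians differed, with 36.7 at 0 h against 60.9 and 62.7 at the later times. The floor lay at 29.6 signal units, which is percentile 40 of the scaled signals, and a gene counted as measured if either array of a pair exceeded it. A gene was called higher or lower at a 2-fold difference, a log2 difference of 1, by its brightest probe set. With 1 array per time there was no replicate error and no test. The error given is the SD between probe sets of the same gene, in log2 units. From 2727 genes it came to 0.41 between 0 and 24 h, from 2702 genes to 0.49 between 0 and 72 h, and from 2785 genes to 0.36 between 24 and 72 h. It does not hold the variation between cultures. The number of arrays limits the precision of every value.

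At 0 h, 9 of 9 macrophage markers were above the floor. So were 11 of 11 neutrophil and precursor markers and 5 of 5 megakaryocyte and platelet markers. Of 8 stromal and osteoblast markers with a probe set, 7 were above the floor as well, among them Sp7 at 30.6 and Lepr at 33.9, close to 29.6. The labelled macrophage precursors were not shown to be free of other marrow cells. These counts alone do not show which cells were present, since most genes on the array also exceeded the floor. Of all 12393, 7990 did so on the 0 h array, against 7904 and 7913 on the later arrays. Of 9 osteoclast markers with a probe set, 6 were above it at 0 h, 7 at 24 h and 9 at 72 h.

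Among the complement genes, the 3 C1q chains fell together within 24 h and stayed low, C3ar1 was called lower at both times against 0 h and properdin at 72 h only, and C5ar1 was called lower at 24 h and was within 2-fold of its first level at 72 h. At 24 h, 5 of the 6 measured genes were called lower than at 0 h and 0 higher, where 9.22% of 8439 measured genes were called lower and 13.2% higher. At 72 h, 5 of 6 were again called lower than at 0 h and 0 higher, against 12.8% and 12.5% of 8558 genes. These 2 comparisons share the 0 h array, and the 5 genes were not all the same, since C5ar1 was called at 24 h and Cfp at 72 h. The list was made with earlier results of these data known, so the counts describe it and do not test it. Between 24 and 72 h, 0 of 6 were called lower and 1 higher, against 10.0% and 6.92% of 8391 genes. The median log2 difference over the 6 genes was -2.31 at 24 h and -2.42 at 72 h against 0 h, and 0.32 between 24 and 72 h, where the medians of all measured genes were 0.12, -0.01 and -0.14. The C1q chains are 3 of these 6, so the medians lean on them. From 24 to 72 h the genes ranged from -0.99 (C3ar1) and -0.97 (Cfp), both just inside 2-fold, to 1.41 (C5ar1).

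The scale of the arrays bears on these calls. On the deposited scale, without centring, 39.0% of measured genes were called higher and 3.71% lower at 24 h, and 35.0% and 5.33% at 72 h, with medians of all measured genes at 0.78 and 0.68. At 24 h the split was 10.1% higher and 11.4% lower after quantile normalization, and 9.13% and 12.5% after trimmed mean scaling. From 24 to 72 h it was 5.80% higher and 13.1% lower when scaled to the hybridization controls. On the deposited scale the log2 difference of C3ar1 at 24 h was -0.64 and that of Cfp at 72 h was -0.88, so both calls were lost, while the 3 C1q chains were called lower at both times on each of 5 scales.

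**Figure D1:**
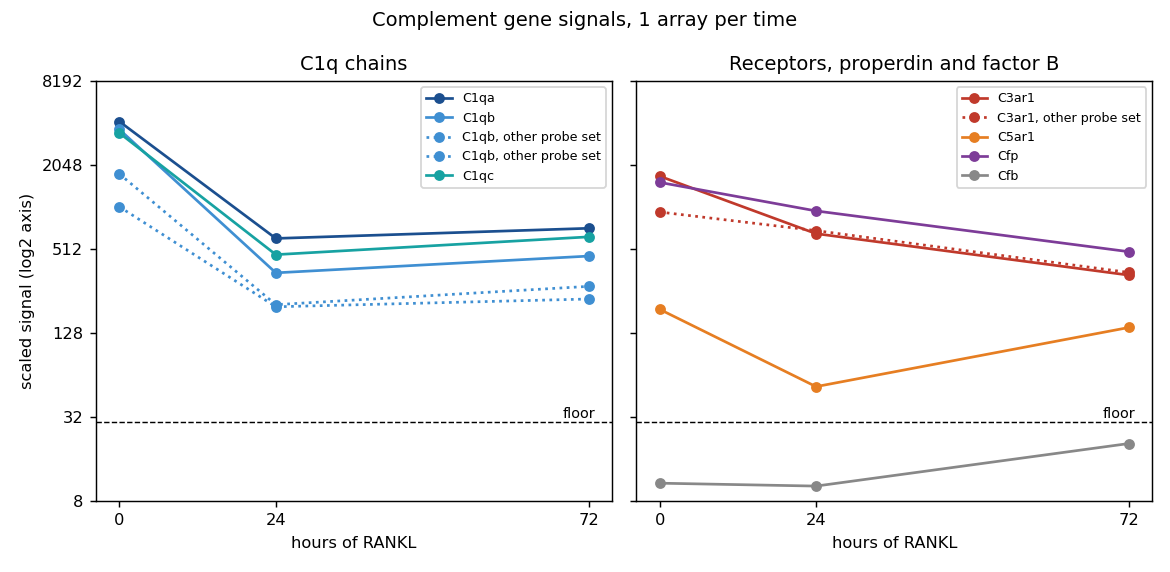
Scaled signal (log2 axis) of each probe set of 7 complement genes against hours of RANKL, 1 array per time; solid lines join the brightest probe set of a gene, dotted lines its other probe sets, and the dashed line is the floor of 29.6. The C1q chains drop by 24 h and level off, the brightest C3ar1 probe set and Cfp are lower at each time than before, with Cfp within 2-fold in each interval and level by 24 h (0.05) on the deposited scale, C5ar1 dips at 24 h to 52.7, and Cfb lies under the floor throughout.

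The C1q genes lie side by side on chromosome 4, in the order C1qb, C1qc, C1qa, with 0 other genes of the reference table between them. Since the 3 chains moved together, the 250 bases before the starts of C1qb and C1qc are shown, from RefSeq on GRCm38.p6, minus strand, chr4:136886201-136886450 for C1qb and chr4:136892915-136893164 for C1qc. Each is read 5′ to 3′, and capitals mark matches to motifs of factors known in macrophages.
C1qb: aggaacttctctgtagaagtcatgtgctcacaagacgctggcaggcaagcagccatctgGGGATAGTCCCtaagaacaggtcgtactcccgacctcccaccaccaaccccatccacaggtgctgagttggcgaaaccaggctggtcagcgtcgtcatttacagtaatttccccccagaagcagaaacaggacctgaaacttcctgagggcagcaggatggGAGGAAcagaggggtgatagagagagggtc
C1qc: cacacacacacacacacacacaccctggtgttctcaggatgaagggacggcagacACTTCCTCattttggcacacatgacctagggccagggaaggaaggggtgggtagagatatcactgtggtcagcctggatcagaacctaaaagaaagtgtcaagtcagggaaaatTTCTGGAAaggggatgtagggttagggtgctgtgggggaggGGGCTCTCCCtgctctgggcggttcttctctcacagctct

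The promoter table held 6 of the 9 genes, without C1qa, C4b and Cfb. The motifs were searched on both strands in windows of 300 bases, 250 before and 50 after the start: GAGGAA and its longer form GAGGAAGT for PU.1, the macrophage lineage factor; TTCNNNGAA for STAT factors; TTNCNNAA for C/EBP factors; TGCTGAC for MAF factors; GGGA and CC parted by any 4 bases for NF-kB; and GAAA repeated after any 2 bases for interferon regulatory factors. In the C1qb window GAGGAA begins at position -30, counted from the base before the start as -1, and a stretch at -191 matches the NF-kB motif on both strands. In the C1qc window the longer PU.1 motif lies on the opposite strand at -195, with a C/EBP match at -81 and an NF-kB match at -40. Of 32851 promoter windows, 28.3% hold GAGGAA, 3.20% GAGGAAGT, 40.7% the C/EBP motif and 20.7% the NF-kB motif. Apart from GAGGAAGT, these motifs are common in promoters, and a match is a run of letters, not a shown binding site. The windows of C1qb and C1qc held no match to the STAT, MAF or interferon regulatory factor motifs, which occur in 8.30%, 4.67% and 3.44% of windows. Of the other measured members, C3ar1 held none of these motifs in its window, C5ar1 a C/EBP match at -157, and Cfp GAGGAA on the opposite strand at 2 places after the start.

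C1qa, the A chain, had a signal of 4199 at 0 h, 609 at 24 h and 720 at 72 h. It was high at 0 h and low at both later times, 6.89-fold lower at 24 h (log2 difference -2.78) and 5.83-fold lower at 72 h (-2.54). At 24 h the signal was 14.5% of that at 0 h, and at 72 h 17.2%.

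C1qc, the C chain, followed the same course, with signals of 3473, 466 and 625. It was 7.46-fold lower at 24 h (log2 difference -2.90) and 5.56-fold lower at 72 h (-2.47). Its 24 h difference was within 0.11 of that of C1qa, less than the error of 0.58 for a difference between 2 genes.

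C1qb, the B chain, was read by 3 probe sets, and all 3 fell. The brightest gave 3683 at 0 h, 345 at 24 h and 455 at 72 h, 10.7-fold lower at 24 h (log2 difference -3.41) and 8.09-fold lower at 72 h (-3.02). A second gave 1766, 204 and 276, which is 8.65-fold lower at 24 h and 6.40-fold lower at 72 h. The remaining probe set gave 1027, 197 and 224, or 5.21-fold and 4.58-fold lower. The 24 h differences of these 3 probe sets of a single gene spanned 1.03 on the log2 scale. That is more than the 0.63 between the brightest probe sets of C1qb and C1qa. Both dimmer probe sets carry a suffix of shared probes, and whether they also read other genes was not tested. With median centring the decrease over the 5 C1q probe sets lay between 5.21-fold and 10.7-fold. Its size depended on the scale: the 24 h log2 differences of C1qa, C1qb and C1qc were -2.06, -2.69 and -2.17 on the deposited scale and -3.00, -3.65 and -3.13 after quantile normalization. The array does not order the chains by the size of their decrease.

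Ranked by log2 difference from the most negative, C1qb was number 20, C1qc number 48 and C1qa number 56 of 8439 measured genes at 24 h. At 72 h against 0 h they were numbers 94, 186 (C1qa) and 198 (C1qc) of 8558. The C1q decreases were 6.79 to 8.32 times the probe set error at 24 h and 5.04 to 6.14 times at 72 h.

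From 24 to 72 h the C1q signals did not fall further. All 5 probe sets were slightly higher at 72 h, with log2 differences of 0.19 to 0.43 and factors of 1.14 to 1.35, none of them 2-fold. The brightest probe sets stood at 0.673 (C1qa), 1.11 (C1qb) and 1.18 (C1qc) times the probe set error, so these increases are about as large as the error. Their sign held under the 9 alternatives of scale, floor and probe set tried, with the lowest value 0.11 for C1qa. The floor and probe set settings could not change the values of C1qa (0.24) and C1qc (0.42), so for them only the other scales bear on the sign. For C1qb averaging its probe sets bears on it too, and gave 0.34.

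**Figure D2:**
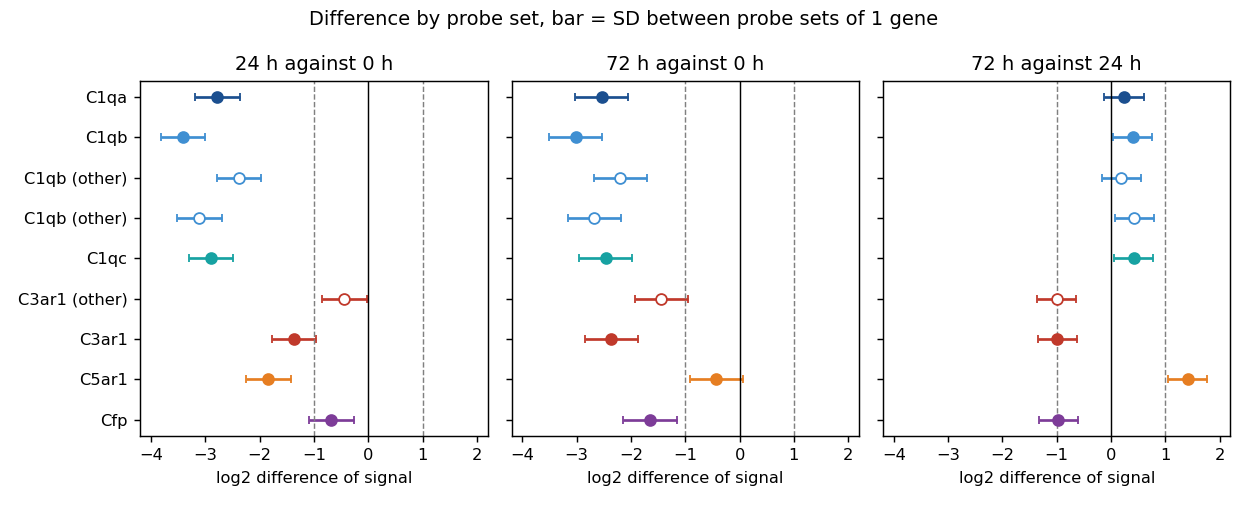
Log2 difference of signal for each probe set of the 6 measured complement genes in the 3 comparisons; filled points are the brightest probe set of a gene, open points its others, bars are the SD between probe sets of a gene (0.41, 0.49 and 0.36), and dashed lines mark 2-fold. The 5 C1q probe sets lie between -3.41 and -2.38 at 24 h and between 0.19 and 0.43 from 24 to 72 h, where C5ar1 is at 1.41.

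Properdin, which holds the alternative pathway enzyme together, was called lower at 72 h and not at 24 h. Cfp signals were 1537 at 0 h, 959 at 24 h and 489 at 72 h, each lower than the one before. It was 1.60-fold lower at 24 h (log2 difference -0.68), within 2-fold, and 3.14-fold lower at 72 h (-1.65). The decrease from 24 to 72 h was 1.96-fold (-0.97), just inside 2-fold. The change of C1qc minus that of Cfp was -2.22 at 24 h, beyond the error of 0.58 for such a difference, and -0.82 at 72 h, with an error of 0.69. The sign of the 24 h value of Cfp depended on the scale, with 0.05 as deposited.

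The C3a receptor was called lower at 24 h and at 72 h against 0 h by its brightest probe set, and its 2 probe sets differed at 24 h. The brightest C3ar1 probe set gave 1704 at 0 h, 659 at 24 h and 332 at 72 h, 2.59-fold lower at 24 h (log2 difference -1.37) and 5.13-fold lower at 72 h (-2.36). The other gave 942, 693 and 347, a factor of 1.36 at 24 h (-0.44), within 2-fold, and 2.72-fold lower at 72 h (-1.44). The probe sets were 0.93 apart for 24 h against 0 h and 0.01 apart for 72 h against 24 h, where the brightest gave -0.99, so they disagreed only in comparisons with the 0 h array. The call at 24 h was lost when the probe sets were averaged (-0.91), while the call at 72 h held (-1.90). The 72 h call also held on the other scales tried, with values from -2.53 to -1.59. The floors and leaving out probe sets by suffix could not change the 72 h value.

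C5ar1, the C5a receptor, was the 1 measured gene called higher between 24 and 72 h. Its signals at 0, 24 and 72 h were 189, 52.7 and 140, low at 24 h and near its first value at 72 h. It was 3.58-fold lower at 24 h (log2 difference -1.84), then 2.66-fold higher at 72 h than at 24 h (1.41, 3.93 times the probe set error). Against 0 h the 72 h value was within 2-fold (-0.43, or 0.34 on the deposited scale). The 72 h change of C3ar1 minus that of C5ar1 was -1.93, with an error of 0.69 for the difference. C5ar1 was read by a single probe set. With the floor at the 60th percentile its rise from 24 to 72 h was 0.60, and the call was lost.

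The remaining listed genes gave no change that could be read. Cfb, factor B of the alternative pathway, had signals of 10.7, 10.2 and 20.6, under the floor on all 3 arrays, so no fold is given. C4b, a component of the classical pathway enzyme, was read only by a probe set that the annotation also assigns to its near copy C4a. That shared probe set gave 59.1 at 0 h, 71.9 at 24 h and 48.6 at 72 h, all within a factor of 1.48, and it cannot tell the 2 genes apart. C3, on which the 3 activation pathways converge, had no single-symbol probe set and was not analysed here.

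**Figure D3:**
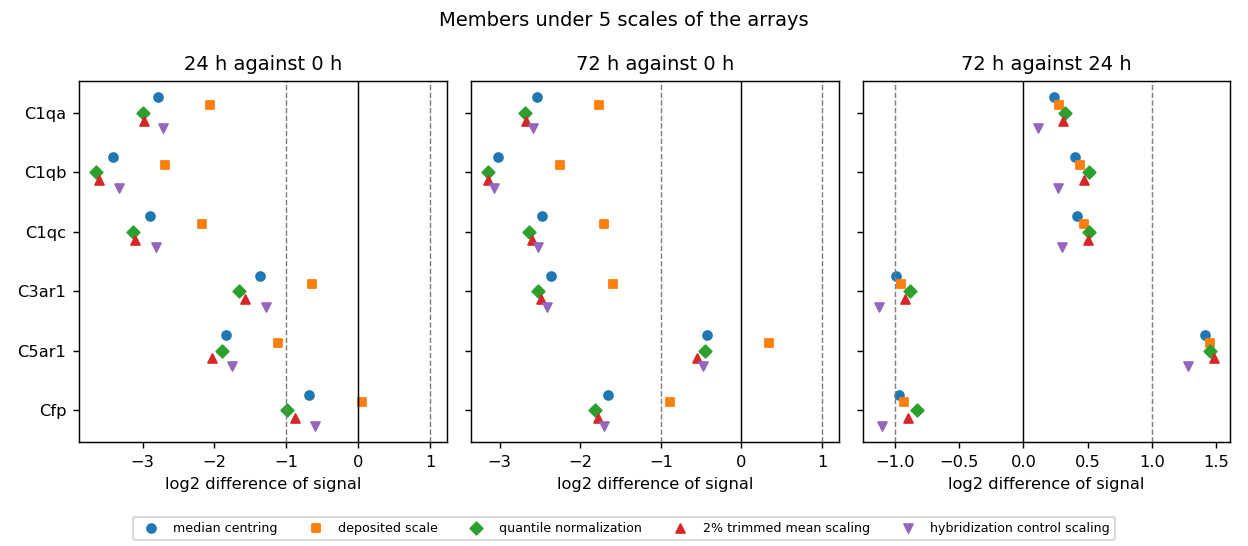
Log2 difference of the 6 measured complement genes in each comparison under 5 scales of the arrays (median centring, deposited, quantile normalization, 2% trimmed mean and hybridization controls); dashed lines mark 2-fold. The deposited scale moves every value against 0 h upward, so that Cfp at 24 h reaches 0.05, and in both comparisons against 0 h the C1q chains stay below -1 on all 5 scales.

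Other genes of the pathway, from a list of 49 symbols, were mostly dim or moved both ways. Of the 49, 37 had a single-symbol probe set, and 17 of these were under the floor on every array, among them the terminal components Hc (C5), C6, C8a, C8b and C8g, which build the membrane pore, the initiators C1s1, C2 and Mbl2 and the regulators Cfi, C4bp and Vtn. At 24 h, 3 of 19 measured genes were called higher and 6 lower (13.2% and 9.22% of all measured genes), with a median of -0.13. At 72 h against 0 h, 3 of 19 were higher and 4 lower (12.5% and 12.8% of all), with a median of -0.04. From 24 to 72 h, 3 of 17 were higher and 1 lower (6.92% and 10.0% of all), with a median of 0.20. The genes called higher at 24 h were a share near that of all genes.

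Surface proteins that bind C1q or complement fragments went both ways. Cd93, first described as a C1q receptor, had signals of 1790, 162 and 109 and was 11.0-fold lower at 24 h and 16.4-fold lower at 72 h. Lrp1, a scavenger receptor for C1q-coated material, was 5.38-fold and 6.55-fold lower, from 1642 to 305 and 251. Itgam, the alpha chain of complement receptor CR3 and also a macrophage marker, was 2.54-fold and 2.61-fold lower, with signals of 578, 227 and 221. Both Itgam calls were lost on the deposited scale, where the differences were -0.62 and -0.61.

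Itgax, the alpha chain of the related receptor CR4, was 2.34-fold higher at 24 h and 2.70-fold higher at 72 h, with signals of 37.5, 87.9 and 101. Under the floor at the 60th percentile the 72 h value was 0.13, no longer a call, and the 24 h difference was not measured. Itgb2, the beta chain that both receptors share, stayed within 2-fold (log2 differences of -0.13 and 0.54). Vsig4, a macrophage receptor for C3 fragments, went from 72.5 to 16.9, under the floor and so at least 2.45-fold lower, and was at 64.2 at 72 h, at least 2.17-fold above 24 h. The first of these calls was lost on the deposited scale (-0.80), and with the floor at the 60th percentile neither was measured. C1qbp, a protein that binds C1q and resides mostly in mitochondria, was 2.17-fold higher at 24 h, a call lost after quantile and trimmed mean scaling.

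Of the regulators that protect the cell, Cd59a, which blocks the membrane pore, was 2.10-fold higher at 24 h and 4.77-fold higher at 72 h, with signals of 102, 214 and 486. Its other probe set was 2.35-fold and 9.79-fold higher, and the 24 h call by the brightest probe set was lost after quantile and trimmed mean scaling. Cr1l, an inhibitor of the C3-cleaving enzymes, stayed within 2-fold, with 0.30 and 0.52. Clu, a soluble inhibitor of the pore, was 3.00-fold lower at 24 h and 6.49-fold lower at 72 h, with signals of 223, 74.5 and 34.4, and its 24 h call was lost on the deposited scale (-0.86). The lectin Colec12 was 2.13-fold lower at 24 h, a call lost on the deposited scale (-0.36) and under the higher floor. The ficolin Fcna was 2.54-fold higher at 72 h than at 0 h and 3.12-fold higher than at 24 h, and under that higher floor both values were 0.70, no longer calls.

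**Figure D4:**
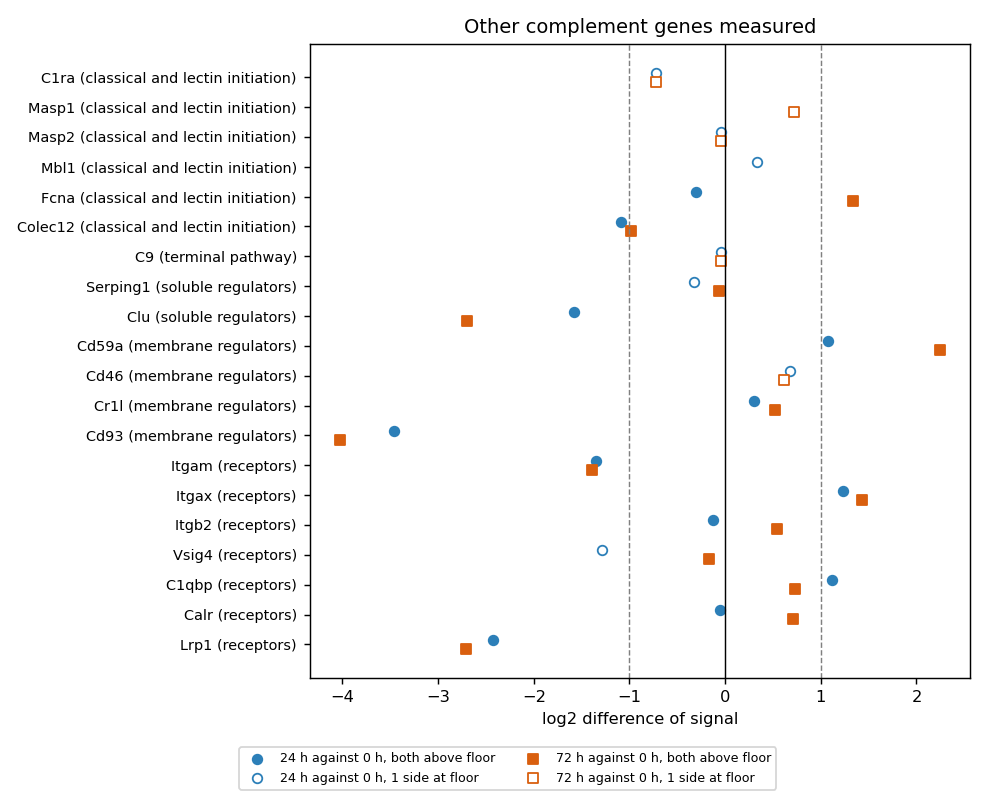
Log2 difference against 0 h at 24 h (circles) and 72 h (squares) for 20 other complement genes measured in at least 1 comparison, ordered by role; open symbols have 1 side at the floor, and dashed lines mark 2-fold. Cd93, Lrp1, Clu and Itgam lie below -1 at both times, and Cd59a and Itgax above 1.

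The genes whose 3 signals were most like the mean course of the C1q chains were found by the Euclidean distance between log2 profiles, each minus its own mean, among 7158 genes above the floor on all 3 arrays, a description over 3 arrays. Egr1, an immediate early transcription factor, came first at a distance of 0.06, with signals of 942, 112 and 152. Slc46a3, a lysosomal transporter, followed at 0.10, then Ly9, a receptor of the SLAM family, at 0.19, Ednrb, an endothelin receptor, at 0.24, and Apoc2, an apolipoprotein, at 0.25. For C5ar1 the nearest were Plk2, a stress-induced kinase (0.10), and Ampd3, an AMP deaminase (0.15), then Crebrf (0.16), Ddhd1 (0.17) and 4931406C07Rik (0.22). Plk2 had signals of 132, 40.9 and 104, low at 24 h as C5ar1 was.

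Markers of macrophages and of other marrow cells, also listed with earlier results of these data known, moved over the same times. Of 9 macrophage markers, 6 were called lower at 24 h and 6 at 72 h (medians of -1.82 and -1.39), where 9.22% and 12.8% of all measured genes were, with summed signals of 31666, 18466 and 21194. Adgre1, the F4/80 antigen, went from 2908 to 561 and 413, whereas Csf1r, the M-CSF receptor, was at 7485, 5786 and 6383. Against 0 h, 0 of the 9 were called higher at 24 h and 1 at 72 h (13.2% and 12.5% of all measured genes were). That 1 was Cd68, with signals of 2868, 2438 and 6699, which are part of the summed signals. Of 11 neutrophil and precursor markers, 3 were lower at 24 h and 11 at 72 h, with summed signals of 19198, 13207 and 1389. Of 5 megakaryocyte and platelet markers, 5 were lower at both times. Of 7 stromal and osteoblast markers measured at 24 h, 0 were called, and 3 of 8 were higher at 72 h, against 12.5% of all genes. Hepatocyte markers (3 with a probe set) and T and NK cell markers (3) were under the floor on every array. These marker calls were made with median centring only. Itgam, 1 of the macrophage markers, lost both of its calls on the deposited scale (-0.62 and -0.61). The part of changes in cell composition in the complement values was not tested.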

How the data were processed

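Biotin-labelled cRNA from 5 µg of total RNA was hybridised to Affymetrix arrays per the labels. The authors deposited 1 table of microarray intensity values on a linear scale, made with MAS5 per the submitters' processing notes; its version and scaling target are not given in the sources used here, and no detection calls were used. Of 22690 probe sets, 64 controls were left out. The platform annotation gave 1 symbol for 20380 of the 22626 gene probe sets, several for 691 and none for 1555; 20364 of the single-symbol probe sets matched the GRCm38.p6 gene table by identifier.

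Log2 intensities were centred on each array's median, and lower values were raised to the floor (40th percentile, log2 value 4.89). A fold with 1 side at the floor is a lower bound. The brightest probe set on average stood for a gene. The planned design had median centring as its main setting. Alternatives were 4 other scales, other floors (20th and 60th percentiles, none), averaged probe sets, probe sets without the suffixes _s_at, _x_at or _a_at, and call thresholds of 1.5-fold and 3-fold. The calls were tested on simulated data, in which known changes larger than 2-fold were put into bright genes. That does not bear on dim genes or on changes near 2-fold.

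The members and all gene lists, markers and motifs were chosen with earlier results of these data known. By rule, the text names every member, each other complement gene past 2-fold in a comparison, and the 5 genes nearest in course to C1q and to C5ar1. Sequences are RefSeq's. The analysis used Python 3.11.15, numpy 2.4.6 and pandas 2.3.3.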

Additional observations from a re-analysis of the deposited data

How the results depend on the processing

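For the single members, 16 of 162 values under the alternatives moved by more than the probe set error, and 146 stayed within it. Among called values 0 changed sign. For a bright gene with 1 probe set, such as C1qa, the floor and probe set settings could not change the value. Averaging changed only C1qb and C3ar1, the floors changed only C5ar1, and leaving out probe sets by suffix changed no member. Many of the 146 values were therefore fixed in advance. Counts stayed within 1.5 times the reported count, or medians within the probe set error, in 124 of 159 cases. The deposited scale moved the members' median to -1.58 at 24 h and -1.65 at 72 h against 0 h, and gave 7 of 18 other complement genes higher at 72 h (35.0% of all genes were) and 2 of 18 lower at 24 h (3.71%). With the floor at the 20th percentile Cfb was measured too, the 24 h median was -1.84, 2 members were higher from 24 to 72 h, and of the other complement genes 10 of 29 were lower at 24 h (11.9% of all), 7 of 30 lower at 72 h (15.0%) and 6 of 27 higher from 24 to 72 h (9.03%). With no floor the 24 h median was -1.84, 2 members were higher from 24 to 72 h, and the other genes had 7, 6 and 6 higher and 13, 9 and 5 lower at 24 h, at 72 h and from 24 to 72 h, of 37 each, where 16.3%, 16.0% and 12.0% of all genes were higher and 15.2%, 18.4% and 15.3% lower. With the floor at the 60th percentile 0 members were higher from 24 to 72 h, and the other genes had 1 of 12 higher at 72 h (11.9%), and of 10, 1 higher (5.92%) and 0 lower (9.16%) from 24 to 72 h. Quantile normalization and trimmed mean scaling each left 1 of 19 other genes higher at 24 h (10.1% and 9.13% of all). Hybridization control scaling made 2 members, C3ar1 and Cfp, lower from 24 to 72 h (-1.12 and -1.10; 13.1% of all). Averaging probe sets, or leaving out those with the suffixes _s_at, _x_at or _a_at, each left 0 other genes lower from 24 to 72 h (8.89% and 9.86% of all). A 1.5-fold call gave 2 members lower from 24 to 72 h (24.2% of genes were), and 7 and 6 other genes higher at 72 h and from 24 to 72 h (23.2% and 14.2% of all). A 3-fold call gave 0 members higher from 24 to 72 h (2.68% of genes were), and 0, 1 and 1 other genes higher at 24 h, at 72 h and from 24 to 72 h (4.22%, 5.39% and 2.68%), with 2 lower at 24 h (4.28%) and 0 from 24 to 72 h (2.84%). Beyond what each setting does by its construction, the cause was not tested. Leaving out an array was not possible with 1 array per time, and dim genes such as Cfb and most terminal components are limited by signal over the floor. No paired analysis was possible because each time has 1 array.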

Other observations

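The nearest genes on the chromosome that had a single-symbol probe set gave these values. Beside the C1q genes on chromosome 4, Epha8 and Tex46 were under the floor on all 3 arrays, so the decrease of C1q has no measured neighbour to set it against. Beside Cfp on the X chromosome, Timp1, an inhibitor of metalloproteinases, had signals of 758, 1232 and 2995 and was 3.95-fold higher at 72 h, while Elk1 was near the floor at 28.1, 35.6 and 25.7. Beside C3 on chromosome 17, Trip10 was within 2-fold (0.91 and 0.86 against 0 h), and Tnfsf14 went from 38.6 to under the floor. Beside the stretch that holds C4b and Cfb, Tnxb and C2 were under the floor on all 3 arrays.

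Some other complement genes were read by probe sets that differed in size of change but not in direction. The 4 probe sets of Clu ranged at 24 h from 1.54-fold to at least 5.90-fold lower, and the dimmer probe set of Cd93 was at least 2.47-fold lower against 11.0-fold for the brighter. For C1qbp the dimmer probe set gave 3.77 and 2.21 times its 0 h signal at the later times, and the brighter 2.17 and 1.66 times. Masp1 differed in direction from 24 to 72 h, with 0.72 by its brightest probe set and -0.21 by another. Both values had 1 side at the floor.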
